A study of Homo sapiens with 4 samples.

Results

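The 10 genes described here encode cell-cell adhesion molecules that can hold tumor cells together while they move as a group. They are 6 genes of the cadherin-catenin system (CDH1, CDH2, CDH3, CDH11, CTNNA1 and CTNNB1) and 4 genes of immunoglobulin-type adhesion molecules (ALCAM, L1CAM, MCAM and NCAM1). They were taken as the gene rows whose identifier equals the listed symbol, and all 10 were found among 56304 distinct gene rows. Of the 10, 5 had enough counts to be tested among 15529 tested genes.

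The measurements were bulk RNAseq counts from MV3, an established human melanoma cell line carrying the nuclear label H2B-GFP, without a drug or radiation named in the labels of these libraries. Spheroids of 50000 cells were kept for 2 days in fibrillar collagen I, a 1 mm punch then lifted out the core, and a 3 mm punch lifted out the invasion zone that had formed around it. Each zone had 2 libraries, replicates 1 and 2, and no source used here states that these came from separate cultures, so that p-values measure the spread between these libraries, which may be technical. Replicate 1 libraries held 36363358 (core) and 37591782 (invasion zone) counts and replicate 2 libraries held 14983135 and 11789243, and a punch made from above can leave invading cells over and under the spheroid in the core sample.

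Cadherins bind the same cadherin on a neighboring cell and reach the actin cytoskeleton through beta-catenin and alpha-catenin. Immunoglobulin-type adhesion molecules bind their partners without calcium, and several of them can also bind integrins or other immunoglobulin-type proteins. In melanocytes E-cadherin holds the cell to keratinocytes, and melanomas often lose it and carry N-cadherin, L1CAM, MCAM or ALCAM in its place. The question of the zone comparison was whether cells that had entered the collagen differed in these transcripts from cells that had stayed in the core, and only RNA was measured, not protein at the cell surface.

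The labelled cell type was checked against its markers. SOX10 and TYR had 0 counts in every library, and the 8 melanocyte lineage markers together reached 3.91 and 3.58 CPM (counts scaled to a common library size) in the core against 2.90 and 6.05 CPM in the invasion zone. MITF, at 1.71 to 3.36 CPM, was the most abundant of them. Transcripts of the pigment lineage were therefore scarce, and each of the 5 epithelial markers was at or below 0.453 CPM in every library.

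The 250 bases upstream of the annotated start of the canonical transcript are shown for 4 of the genes, from hg38 with GENCODE release 44. CDH2 was nearly silent in these libraries, and L1CAM, ALCAM and MCAM are the members with a zone difference in the test with a replicate term. The capitals mark CAGGTG or its reverse complement CACCTG, the E-box letters that Snail and ZEB repressors are known to bind, searched on both strands. The windows hold no annotated exon base and are printed 5′ to 3′ on the strand of the gene.
CDH2 (chr18:28177131-28177380, minus strand): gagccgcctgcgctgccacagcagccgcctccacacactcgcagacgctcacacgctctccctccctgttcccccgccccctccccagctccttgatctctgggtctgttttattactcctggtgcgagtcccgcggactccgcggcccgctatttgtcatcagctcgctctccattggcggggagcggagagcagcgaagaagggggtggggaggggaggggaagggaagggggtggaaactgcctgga
L1CAM (chrX:153886174-153886423, minus strand): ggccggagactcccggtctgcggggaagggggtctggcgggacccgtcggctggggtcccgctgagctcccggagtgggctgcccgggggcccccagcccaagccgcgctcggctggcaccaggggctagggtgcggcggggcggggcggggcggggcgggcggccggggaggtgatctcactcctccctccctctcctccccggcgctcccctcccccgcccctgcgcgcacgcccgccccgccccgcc
ALCAM (chr3:105366659-105366908, plus strand): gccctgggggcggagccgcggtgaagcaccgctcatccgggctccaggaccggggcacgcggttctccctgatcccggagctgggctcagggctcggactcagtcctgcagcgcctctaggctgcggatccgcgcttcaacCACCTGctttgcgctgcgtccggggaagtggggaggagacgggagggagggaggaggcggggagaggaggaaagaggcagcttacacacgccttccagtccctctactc
MCAM (chr11:119317131-119317380, minus strand): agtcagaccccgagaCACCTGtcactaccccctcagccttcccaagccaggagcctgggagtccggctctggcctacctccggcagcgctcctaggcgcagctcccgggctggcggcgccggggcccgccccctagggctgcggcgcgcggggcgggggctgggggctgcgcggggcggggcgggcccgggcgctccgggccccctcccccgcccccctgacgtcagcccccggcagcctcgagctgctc

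The windows of ALCAM and MCAM each held 1 E-box, which began 109 and 235 bases before the start. Those of CDH2 and L1CAM held 0. Among windows not printed, that of CDH3, also nearly silent, held 3, and all of its 250 bases are annotated as exon. Those of CDH11, CTNNA1, CTNNB1 and NCAM1 held 0. Of 20044 protein-coding promoters of the same length, 17.4% held at least 1 such match. The L1CAM window was the richest of the 4 printed windows in G and C, at 82.0% against a median of 63.2% over all promoters. It had 29 CpG dinucleotides against a median of 18. It also held 8 matches to GGGCGG or CCGCCC, letters known for binding Sp1-type factors, which 59.0% of all promoters hold at least once. These letter matches describe the sequence, and no binding was measured.

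The 10 genes fell into an abundant and a nearly silent set. To compare genes, levels were calculated per exonic kilobase as TPM, which corrects for gene length and library size. ALCAM had a mean of 300.1 TPM over the 4 libraries (range 229 to 358), CTNNA1 of 255 TPM (235 to 272), L1CAM of 132 TPM (45.4 to 234), CTNNB1 of 59.7 TPM (48.3 to 70.8) and MCAM of 14.6 TPM (10.0 to 17.4). Ranked by mean TPM among 32453 genes with a count, these stood at 516, 642, 1520, 3468 and 8113. The ranges of ALCAM and CTNNA1 overlapped, as did those of L1CAM and CTNNB1, so that their order was not set apart from the spread over libraries. With the length of the canonical transcript alone, CTNNA1 (342 TPM) stood above ALCAM (261 TPM) and CTNNB1 (109 TPM) above L1CAM (106 TPM), while MCAM (18.5 TPM) remained the lowest of the 5. The other 5 genes, the 4 cadherins and NCAM1, did not exceed 0.438 TPM in any library.

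**Figure D1:**
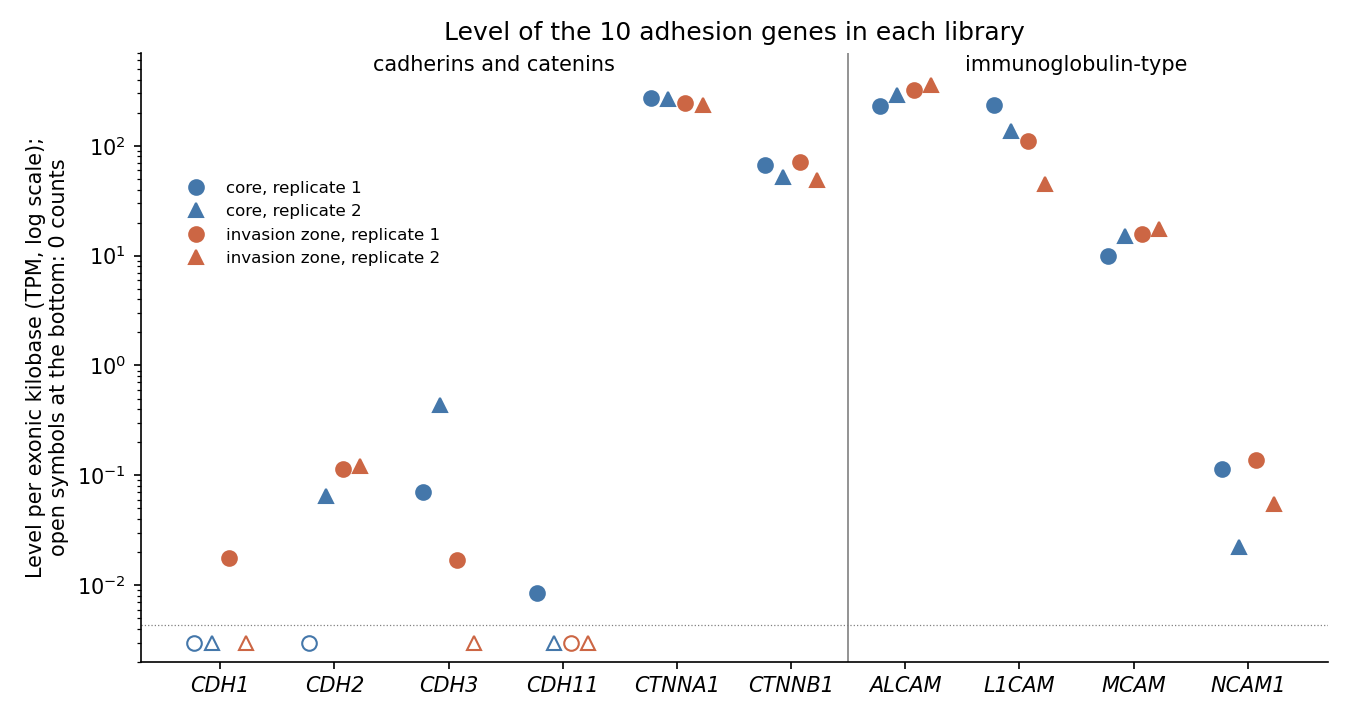
Level of each of the 10 genes per exonic kilobase (TPM, log axis) in each of the 4 libraries, with blue for core, orange for invasion zone, circles for replicate 1, triangles for replicate 2 and open symbols at the bottom for 0 counts. CTNNA1, CTNNB1, ALCAM, L1CAM and MCAM sit between 10.0 and 358 TPM, and the 4 cadherins and NCAM1 sit at or below 0.438 TPM.

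The 4 cadherin members had at most 10 counts in any library. CDH1 (ENSG00000039068, chr16:68737292-68835537) encodes E-cadherin, the cadherin of epithelia and of melanocytes in the epidermis. It had 0 counts in both core libraries, 1 count in invasion zone replicate 1 and 0 in invasion zone replicate 2. CDH11 (ENSG00000140937, chr16:64943753-65126112), the cadherin of mesenchymal cells and osteoblasts, had 1 count in core replicate 1 and 0 in the other libraries. A count of 0 allows up to 3 counts, which is 0.0825 and 0.200 CPM in the core libraries and 0.0798 and 0.254 CPM in the invasion zone libraries.

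CDH2 (ENSG00000170558, chr18:27932879-28177946) encodes N-cadherin, which melanoma cells often carry. It had 0 and 2 counts in the core and 9 and 3 counts in the invasion zone, or at most 0.252 CPM. Pooled over libraries, the ratio of invasion zone to core was 6.18, with an exact interval from 1.38 to 56.9. CDH3 (ENSG00000062038, chr16:68636189-68727468) encodes P-cadherin of basal epithelia and went the other way, with 4 and 10 counts in the core and 1 and 0 in the invasion zone. Its pooled ratio was 0.0736 (0.00174 to 0.484). Both intervals are at the 95% level and take each read as an independent draw, and they leave out the spread between libraries. The study used a low-input cDNA kit and names no molecular tags, so several reads can come from the same RNA molecule. Neither gene passed the filter on low counts, so that no zone test was made.

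Summed over the 4 cadherins, the libraries held 5 counts (0.140 CPM, exact 95% interval 0.0453 to 0.326) in core replicate 1 and 12 counts (0.795 CPM, 0.411 to 1.39) in core replicate 2. The invasion zone libraries held 11 counts (0.293 CPM, 0.146 to 0.525) and 3 counts (0.252 CPM, 0.0520 to 0.737). The measured sum was therefore under 1 CPM in each library, although the interval of core replicate 2 reached 1.39 CPM. The zones overlapped in this sum, in which CDH2 and CDH3 went opposite ways. Among 14 other cadherins listed, 5 had 0 counts in all libraries and only CDH24, a classical-type cadherin, passed the filter. CDH24 had 7.23 and 8.28 CPM in the core against 8.02 and 8.49 CPM in the invasion zone, and its log2 fold change of invasion zone over core was 0.09 ± 0.23 (SE), with an adjusted p (Benjamini-Hochberg, over all tested genes) of 0.840 in edgeR's quasi-likelihood test.

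The catenins were abundant in the same libraries, at 7642 to 28483 counts for the pair. CTNNA1 (ENSG00000044115, chr5:138610967-138935034) encodes alpha-catenin, which joins the cadherin complex to actin. It had 598 and 560 CPM in the core against 532 and 504 CPM in the invasion zone, with means of 579 ± 26.8 and 518 ± 19.5 CPM (SD, n = 2 each). Both invasion zone values were under both core values, although the nearest values differed by only 1.05-fold. The log2 fold change was -0.16 ± 0.14 (SE, 95% interval -0.51 to 0.19), with an adjusted p of 0.518 (edgeR), and 0.104 with the replicate number as a block, which compares the zones within each replicate. With the block and an offset for GC content and length together, the value was -0.19 with an adjusted p of 0.0465 (edgeR).

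CTNNB1 (ENSG00000168036, chr3:41194741-41260096) encodes beta-catenin, which binds the cadherin tail and also carries the Wnt signal to the nucleus. It had 197 and 145 CPM in the core against 205 and 138 CPM in the invasion zone, with means of 171 ± 36.7 and 172 ± 47.3 CPM (SD, n = 2 each). Here the libraries split by replicate and not by zone, since both replicate 2 libraries were lower than both replicate 1 libraries, by 0.44 on the log2 scale in the core and 0.57 in the invasion zone. The log2 fold change between zones was 0.01 (95% interval -0.63 to 0.64, adjusted p 0.992, edgeR) and -0.00 (-0.18 to 0.17) with the block. An interval this wide without the block does not show that the zones were alike. CTNNA1 RNA exceeded CTNNB1 RNA by 3.46 to 5.14 times in TPM per exonic kilobase, with 4.04 and 5.14 in the core and 3.46 and 4.86 in the invasion zone. The ratio depends on the gene length used, since with the canonical transcript the mean levels were 342 and 109 TPM.

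The 3 members with an adjusted p under 0.05 in edgeR with the replicate block alone were immunoglobulin-type genes. L1CAM (ENSG00000198910, chrX:153861514-153886173) encodes a neural adhesion molecule that binds itself and integrins. It had 423 and 235 CPM in the core against 197 and 80.1 CPM in the invasion zone, with means of 329 ± 133 and 138 ± 82.3 CPM (SD, n = 2 each). The zones did not overlap, with the invasion zone lower, and the nearest values, core replicate 2 and invasion zone replicate 1, differed by 1.20-fold. Within replicate 1 the log2 ratio of invasion zone to core was -1.11 (counting interval -1.15 to -1.07), and within replicate 2 it was -1.55 (-1.66 to -1.45). L1CAM also differed between replicates of the same zone, by -0.85 in the core and -1.29 in the invasion zone on the log2 scale, so that the replicate difference was of the size of the zone difference.

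The log2 fold change of L1CAM was -1.25 ± 0.49 (SE, 95% interval -2.48 to -0.02), or 2.37-fold lower in the invasion zone, with p 0.0477, the only p under 0.05 among the members, and an adjusted p of 0.202 in edgeR's quasi-likelihood test. In that test 0% of the 15529 genes reached an adjusted p under 0.05 with a 2-fold change, although 454 genes were higher and 909 lower by 2-fold at an unadjusted p under 0.05. DESeq2 gave L1CAM an adjusted p of 0.0319 and called 354 genes higher and 548 lower, and limma voom gave an adjusted p of 0.172 and called 0. With the replicate block, L1CAM fell by 1.32 on the log2 scale (SE 0.11, 95% interval -1.56 to -1.08, 2.50-fold, adjusted p 8.43e-05). L1CAM was the only 1 of the 5 tested members past 2-fold, against 7.06% of all tested genes lower and 3.41% higher by the same rule. With an offset for GC content and length, its log2 fold change was -0.996, under 2-fold (adjusted p 0.245, edgeR). With the offset and the block it was -1.05 (adjusted p 3.46e-05, edgeR), little past 2-fold. Without the block, the log2 fold change was -0.75 (adjusted p 0.372) with core replicate 1 left out and -0.74 (0.122) with invasion zone replicate 2 left out. It was -1.61 (0.00841) with core replicate 2 left out and -2.04 (0.00154, edgeR) with invasion zone replicate 1 left out.

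ALCAM (ENSG00000170017, chr3:105366909-105576900) encodes CD166, which binds itself and CD6 and is carried by many melanomas. It had 409 and 496 CPM in the core against 566 and 625 CPM in the invasion zone, with means of 453 ± 61.4 and 595 ± 41.9 CPM (SD, n = 2 each). The zones did not overlap, with the invasion zone higher by a gap of 1.14-fold. Within replicates the log2 ratio was 0.47 (counting interval 0.44 to 0.50) and 0.33 (0.29 to 0.38). The log2 fold change was 0.40 ± 0.16 (SE, 95% interval -0.02 to 0.81), or 1.32-fold, with an adjusted p of 0.219 (edgeR), and with the block it rose by 0.40 (0.23 to 0.57, adjusted p 0.00290).

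MCAM (ENSG00000076706, chr11:119308529-119321521) encodes CD146, an adhesion molecule of endothelium and of metastatic melanoma. It had 18.5 and 26.6 CPM in the core against 28.7 and 31.4 CPM in the invasion zone, with means of 22.5 ± 5.70 and 30.0 ± 1.89 CPM (SD, n = 2 each). The zones did not overlap, but core replicate 2 came within 1.08-fold of invasion zone replicate 1. Within replicates the log2 ratio was 0.63 (counting interval 0.49 to 0.77) and 0.24 (0.03 to 0.45). The log2 fold change was 0.42 ± 0.22 (SE, 95% interval -0.14 to 0.98), with an adjusted p of 0.309 (edgeR). With the block MCAM rose by 0.45 on the log2 scale (0.15 to 0.75, adjusted p 0.0255), under 2-fold, and the adjusted p was 0.0838 in DESeq2 with the block.

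NCAM1 (ENSG00000149294, chr11:112961275-113278436), the neural adhesion molecule CD56, had 13 and 1 counts in the core and 16 and 2 counts in the invasion zone. The pooled ratio of invasion zone to core was 1.33, with a counting interval from 0.623 to 2.88. Its level was at most 0.136 TPM, and it was not tested.

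**Figure D2:**
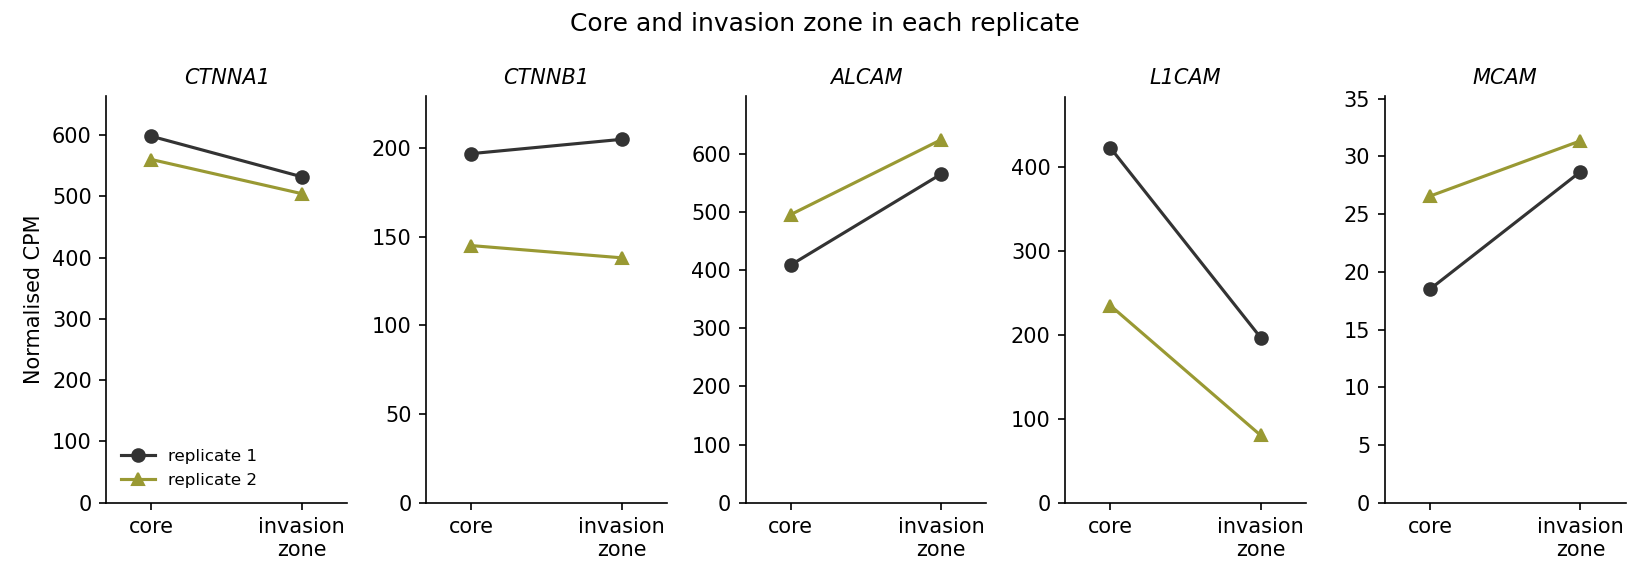
Normalised CPM (axis from 0, its own scale in each panel) of the 5 tested genes in core and invasion zone, with a line joining the libraries of the same replicate number (black circles, replicate 1, olive triangles, replicate 2). L1CAM goes from 423 to 197 CPM in replicate 1 and from 235 to 80.1 CPM in replicate 2, ALCAM and MCAM go up in both, CTNNA1 goes down slightly in both, and CTNNB1 goes up in replicate 1 and down in replicate 2.

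Set side by side, the 2 tested catenins had a median log2 fold change of -0.08 and the 3 tested immunoglobulin-type genes had a median of 0.40, with L1CAM at -1.25 at its lower end, while the median over all tested genes was -0.01. Among the 5 tested genes, ALCAM and MCAM had both invasion zone libraries above both core libraries and L1CAM and CTNNA1 had both below. Such a separation occurred upward in 28.1% and downward in 30.3% of all tested genes. With the block and no minimum fold, 2 members passed an adjusted p under 0.05 upward and 1 downward, against 19.4% of all tested genes upward and 19.4% downward. With 5 genes tested, these counts describe the genes themselves and are no test of the list.

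L1CAM and ALCAM went in opposite directions in each replicate, and the make-up of the immunoglobulin-type transcripts was followed as shares of their sum. The sum over the 4 genes was 473 and 444 TPM in the core and 446 and 421 TPM in the invasion zone. L1CAM made up 49.4% and 30.8% of it in the core and 24.6% and 10.8% in the invasion zone. The share of ALCAM was 48.4% and 65.8% in the core and 71.8% and 85.1% in the invasion zone, and MCAM held 2.12% to 4.13%. L1CAM and ALCAM made up nearly all of the sum, so a lower share of L1CAM raises that of ALCAM. Their shares are therefore not separate results. The L1CAM share differed more between the core replicates than between core replicate 2 and invasion zone replicate 1. The TPM ratio of L1CAM to ALCAM went from 1.02 (core replicate 1) and 0.468 (core replicate 2) to 0.343 and 0.127 in the invasion zone. The ratio of MCAM to ALCAM stayed between 0.0437 and 0.0518 in the 4 libraries. In bulk RNA, fewer cells carrying a transcript and less transcript per cell cannot be told apart.

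**Figure D3:**
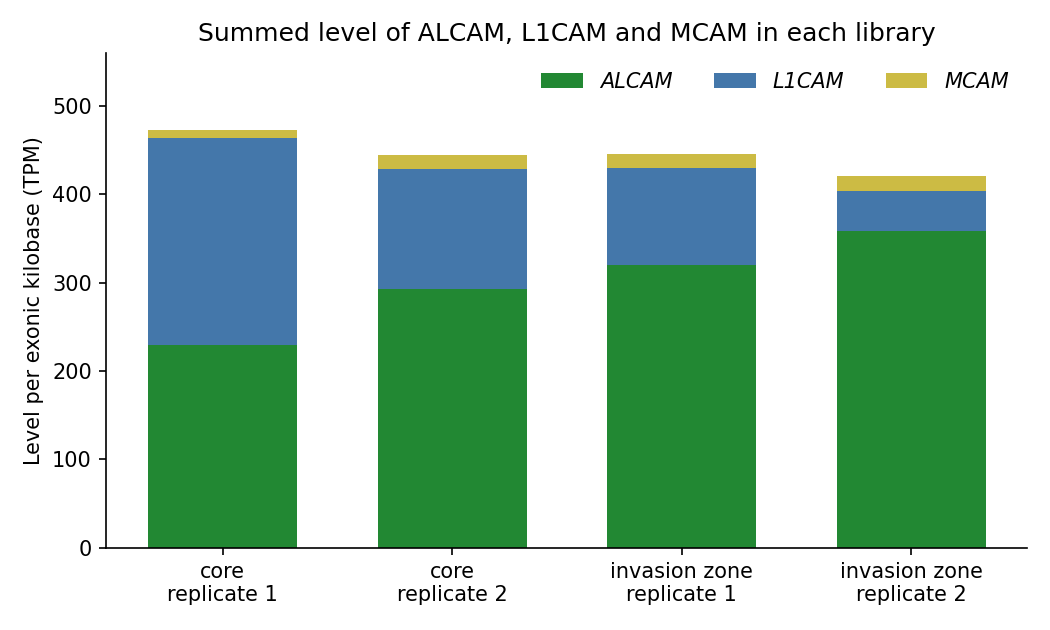
Stacked levels per exonic kilobase (TPM, axis from 0) of ALCAM, L1CAM and MCAM in each of the 4 libraries. The sums lie between 421 and 473 TPM. From core to invasion zone, the L1CAM share goes from 49.4% to 24.6% in replicate 1 and from 30.8% to 10.8% in replicate 2.

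The genes around these members were followed in related lists, by counts and medians. Without the block edgeR and limma voom called 0 of them, and DESeq2 called 5. In edgeR without the block, 0 of all 15529 tested genes, these included, had an adjusted p under 0.05 at any fold. Of 10 other catenins and adherens junction linkers, 7 were tested, with a median log2 fold change of 0.02. At an unadjusted p under 0.05 without the block 2 were higher and 1 was lower (edgeR), and with the block 0 passed 2-fold while 2 rose and 2 fell at an adjusted p under 0.05 (19.4% of all tested genes in each direction). CTNNAL1, an alpha-catenin-like protein and the most abundant of the list at 381 TPM, had 243 and 203 CPM in the core against 392 and 324 CPM in the invasion zone, and rose by 0.68 on the log2 scale with the block (adjusted p 0.000204), against 0.135 without it (edgeR). CTNND1, p120-catenin, which stabilizes cadherins at the membrane, had 156 and 140 CPM in the core against 126 and 115 CPM in the invasion zone and fell by 0.30 with the block (adjusted p 0.0153). It was named after its values were seen, as a direct partner of the cadherins.

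Of 20 other immunoglobulin-type adhesion molecules, 12 were tested, with a median log2 fold change of -0.52. In 8 of the 12 the zones did not overlap and the invasion zone was lower (30.3% of all tested genes), and in 3 it was higher (28.1%). At an unadjusted p under 0.05 without the block 2 were higher and 3 lower (edgeR), and with the block 4 were called lower at 2-fold (7.06% of all tested genes) and 0 higher (3.41%), namely PECAM1, JAM2, ICAM1 and, outside the naming rule, BCAM. ICAM1, the ligand of leukocyte integrins, had 136 and 129 CPM in the core against 53.0 and 34.4 CPM in the invasion zone. Its log2 fold change was -1.59 ± 0.23 (SE), with an adjusted p of 0.128 without and 8.28e-05 with the block in edgeR, and 7.16e-07 in DESeq2.

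PECAM1, the endothelial adhesion molecule CD31, had 18.1 and 7.42 CPM in the core against 5.22 and 0.925 CPM in the invasion zone, and JAM2, a junctional adhesion molecule, had 18.0 and 6.76 CPM against 5.36 and 2.27 CPM. Both fell with the block, by 2.09 (adjusted p 0.000461) and 1.69 (adjusted p 0.000326) on the log2 scale in edgeR. The most abundant of the list, NECTIN2, a nectin of adherens junctions at 162 TPM, had 170 and 146 CPM in the core against 146 and 130 CPM in the invasion zone (adjusted p 0.0735 with the block). PVR, the poliovirus receptor of the nectin family, was named after its values were seen because it stood just under 2-fold, with 61.1 and 96.0 CPM in the core against 121 and 190 CPM in the invasion zone and an adjusted p of 8.43e-05 with the block. Like ALCAM, PVR was higher in both invasion zone libraries.

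Endothelial, fibroblast and leukocyte cells were checked by their markers. No markers of neural cells were listed, so carriers of L1CAM of that kind were not examined. Of the 5 endothelial markers, KDR had 0 counts, VWF, TEK and CDH5 had at most 16 counts in a library, and the sum over the list, which holds PECAM1 itself, was 18.4 and 7.62 CPM in the core against 5.76 and 0.925 CPM in the invasion zone. Of the 3 fibroblast markers, DCN and LUM had 0 counts and PDGFRA had 95.1 and 58.2 CPM in the core against 38.1 and 13.6 CPM in the invasion zone. The leukocyte markers summed to at most 0.223 CPM in a library, with CD3E at 0 counts. PECAM1 and PDGFRA thus stood without the defining markers of endothelium or fibroblasts, and like L1CAM both fell with the block and were lowest in invasion zone replicate 2. Their part in the L1CAM result was not tested.

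Of 9 sheddases and polysialyltransferases, enzymes that cut L1CAM, ALCAM and cadherins from the surface or modify NCAM1, 8 were tested with a median log2 fold change of -0.28. Without the block 1 was lower and 0 higher at an unadjusted p under 0.05 (edgeR), and with the block 0 passed 2-fold while 1 rose and 4 fell at an adjusted p under 0.05 (19.4% of all tested genes each way). ADAM15, a membrane protease and the most abundant per kilobase at 125 TPM, had 160 and 207 CPM in the core against 201 and 233 CPM in the invasion zone. It was the gene that rose with the block, by 0.25 on the log2 scale (adjusted p 0.0321). The zones overlapped for ADAM15, and without the block its adjusted p was 0.462 (edgeR). ADAM10, the main sheddase of L1CAM and N-cadherin, had 167 and 147 CPM in the core against 143 and 125 CPM in the invasion zone, and it fell by 0.23 (adjusted p 0.0392). NCSTN, a gamma-secretase subunit, fell by 0.76 (adjusted p 0.000163). ADAM10 and NCSTN were named after their values were seen, for their known roles.

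Of 12 desmosome, tight and gap junction genes, 5 were tested with a median log2 fold change of 0.68. In 4 of the 5 the zones did not overlap, with the invasion zone higher (28.1% of all tested genes), and with the block 3 rose at an adjusted p under 0.05 (edgeR, 19.4% of all tested genes). GJC1, the gap junction protein connexin 45 and the most abundant of the list at 39.5 TPM, had 52.7 and 76.2 CPM in the core against 88.3 and 118 CPM in the invasion zone and rose by 0.69 with the block (adjusted p 0.000469).

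**Figure D4:**
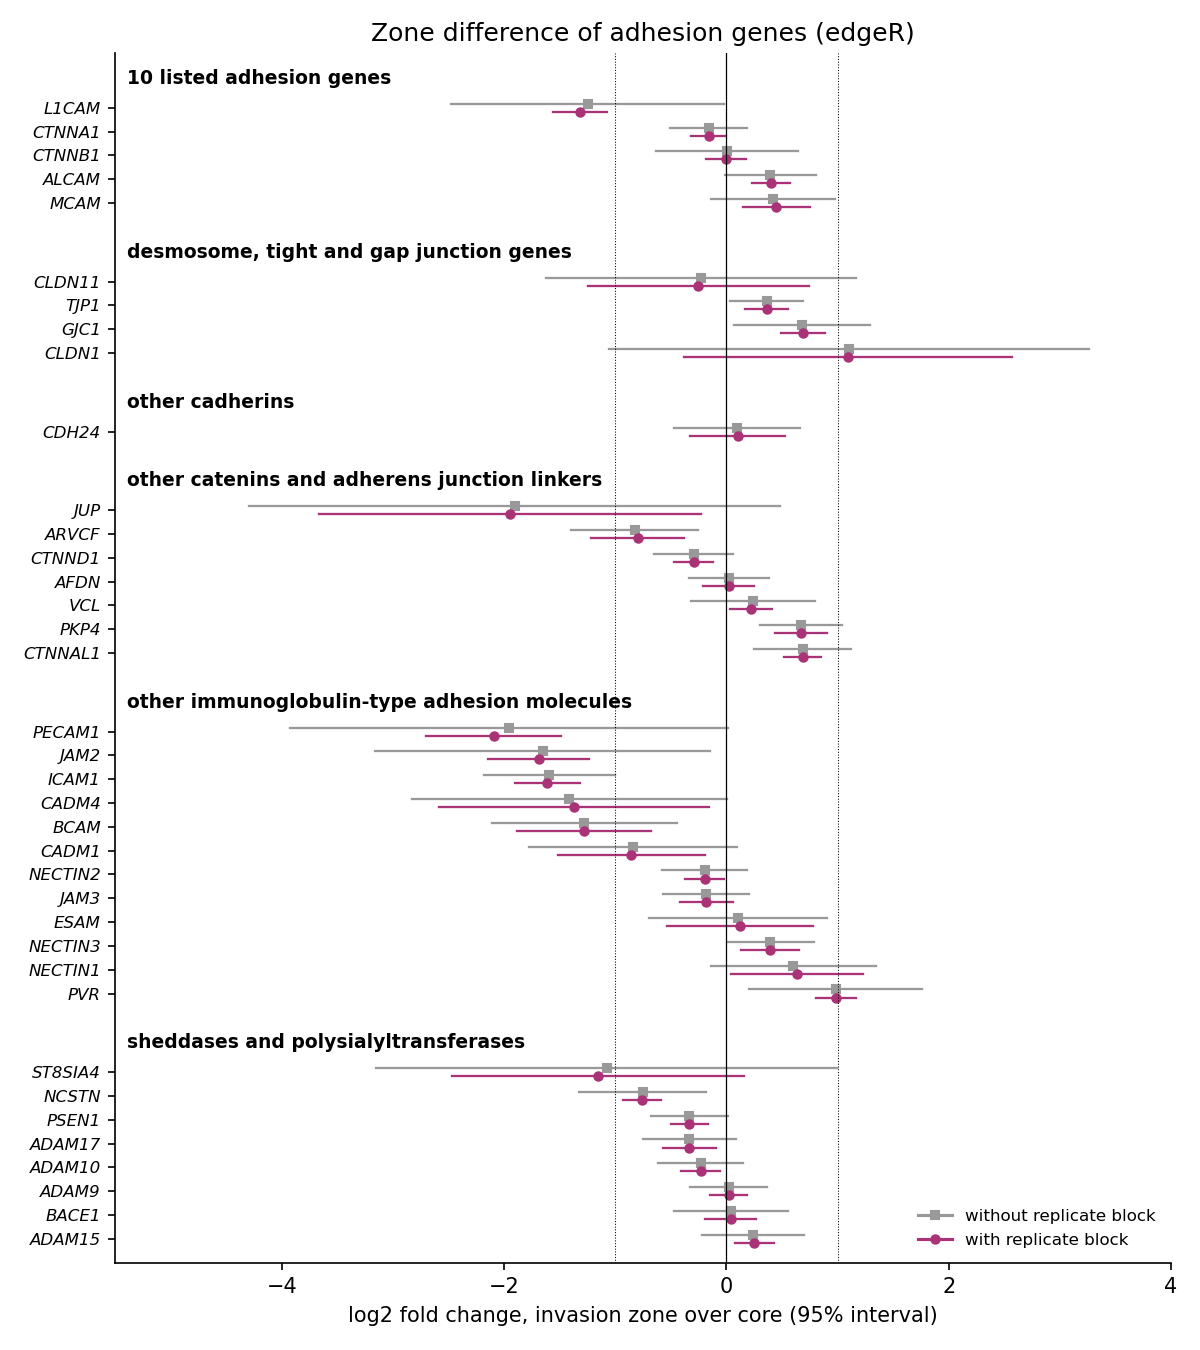
Log2 fold change of invasion zone over core with its 95% interval for tested adhesion genes, by list, from edgeR without (grey squares) and with (purple circles) the replicate block, with dotted lines at a 2-fold change. L1CAM lies at -1.25 and -1.32, its interval with the block ends at -1.08, and ALCAM (0.40) and MCAM (0.42) lie on the other side of 0 within 2-fold.

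The reads of the tested members could be shared with neighbors to a small degree. Of 7269 exonic bases of L1CAM, 439 are also annotated to a gene on the same strand and 359 to L1CAM-AS1 on the other. Of 7422 bases of MCAM, 509 also belong to CBL on the other strand. CTNNA1 shares 520 of 8830 bases with genes on the other strand, and ALCAM and CTNNB1 share none. Of the untested members, CDH1, CDH2, CDH3 and NCAM1 share 347, 307, 537 and 1002 bases with genes on the other strand. CDH11 shares 254 on the same strand, and the few counts of these members could come from such stretches. Among the related genes named above, the largest overlaps were in CTNND1 (5952 of 15212 bases, same strand), PVR (2149 of 10427, same strand) and ICAM1 (876 of 3448, other strand). The strand setting of the counting is not given in the sources used here, so reads from such stretches cannot be told apart.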

How the data were processed

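Core and invasion zone of MV3 spheroids were sequenced as bulk RNA, with 2 libraries each. The deposited values are raw counts per gene. The authors used Bowtie to discard ribosomal RNA reads, filtered reads by quality, mapped them with STAR (default settings, hg38) and counted unique reads with HTSeq-count, followed by DESeq2 with a 2-fold limit. For these tools, the strand setting, annotation release and versions were not given in the sources used here. All 4 sample columns were used.

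The table held 56306 rows, of which 2 repeated rows without counts were left out. Counts were tested in R 4.3.3 with edgeR 4.0.16 (quasi-likelihood test, TMM factors 0.985 to 1.01) on 15529 genes with at least 10 counts at the median library size in 2 libraries and 15 counts in all. P-values were adjusted by Benjamini-Hochberg over these genes, and calls needed an adjusted p under 0.05 with a 2-fold change. Normalised CPM used the same factors. TPM used the union of exons in GENCODE release 44, which held 98.1% of the identifiers. Positions and promoter windows are from GENCODE release 44 and hg38. Intervals from counts were computed with scipy 1.17.1 and cover counting error only, with each read taken as independent. The study used a low-input cDNA kit and names no molecular tags, so these intervals can be too narrow. The 3-count limit for a count of 0 takes reads the same way and is per library. With 11789243 to 37591782 counts per library, 3 counts correspond to 0.0798 to 0.254 CPM.

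The protocol takes a core and then its corresponding invasion zone from a spheroid, which was read as pairing same-numbered libraries, but no source ties a replicate number to a given spheroid. Deviations from the zone means correlated at 0.58 across genes between libraries of the same number. With 2 libraries per zone, the deviations of replicate 2 mirror those of replicate 1 and add no separate evidence. Depth also differed between replicate numbers, and its part in this correlation was not tested. The biological coefficient of variation was 0.216 without and 0.0927 with the replicate block. With 4 libraries, the blocked fit leaves few degrees of freedom per gene. Its p-values therefore rest mainly on the spread shared over all genes, and on a pairing that no source states. The fit without the block follows the study's pair-wise design and comes before the blocked one.

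The members and lists were chosen with earlier results of these data known. Named were all 10 members and, in each related list, the gene of highest level per kilobase and up to 3 genes called in either fit per direction, except items not reported here. Alternatives were DESeq2 1.42.0, limma 3.58.1 (voom), RLE and upper-quartile scaling, 2 other count filters, unadjusted p, no minimum fold, an offset for GC content and length (known for 99.1% of tested genes), the replicate block, each library left out and canonical transcript length. Voom, RLE scaling and no count filter, each with the block, were chosen after seeing the data. The procedure was also run on simulated counts, with and without a replicate shift shared by both zones. That run cannot show whether same-numbered libraries are paired in these data. Plots were made in Python 3.11.15 (matplotlib 3.10.9).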

Additional observations from a re-analysis of the deposited data

How the results depend on the processing

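Without a replicate block, 0 genes, 0 of the 10 members and 0 related genes were called higher or lower, and this count stayed 0 with RLE scaling, limma voom, upper-quartile scaling, a minimum of 10 counts per library, no minimum fold or an offset for GC content and length. With the replicate block, 530 genes were called higher and 1097 lower, with 1 member (L1CAM, lower) and 5 related genes. DESeq2 called 354 and 548, 1 member and 5 related genes, and with the block 427 and 731, again 1 member and 5 related genes. With no low-count filter (32869 genes) the calls were 427 and 846, 1 member and 5 related genes, and with unadjusted p 454 and 909, 1 member and 4 related genes. With the block and no minimum fold they were 3010 and 3009, 2 members higher, 1 member lower and 19 related genes, and with the offset and the block 544 and 1047, 1 member and 5 related genes. With the block, limma voom gave 575 and 1088, 1 member and 6 related genes, RLE scaling 555 and 1093, 1 member and 5 related genes, and no count filter 560 and 1198, 1 member and 5 related genes. Leaving out each library in turn gave 13 to 632 genes higher, 125 to 1137 lower, 0 to 1 member lower and 1 to 7 related genes. Without core replicate 1 the calls were 13 and 125. Fewer libraries remained in those fits, with the lone library of a zone taken to vary like the pair of the other, and the cause of the other changes was not tested.

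The log2 fold change of L1CAM lay between -2.04 and -0.74 in 20 alternatives and passed a p under 0.05 with a 2-fold change in 12, of which 1 used the unadjusted p, that of ALCAM lay between 0.27 and 0.55, of MCAM between 0.19 and 0.70 and of CTNNA1 between -0.20 and -0.10. CTNNB1 changed sign in 10 of 20, none past the threshold: -0.0287 (upper-quartile scaling), -0.0186 (minimum of 10 counts), -0.0042 (replicate block, with or without a minimum fold), -0.0035 (limma voom), -0.0709 (offset), -0.0806 (offset and block), -0.0072 (block, no filter), -0.193 (core replicate 2 left out) and -0.311 (invasion zone replicate 1 left out), and its highest value with a library left out was 0.260. Depth limits the 4 cadherins and NCAM1, which had 1 to 32 counts over all libraries.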
